A study of Homo sapiens with 16 samples.

Results

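The genes described here are 7 ligands of the epidermal growth factor (EGF) family, EGF, NRG4, AREG, EREG, TGFA, HBEGF and BTC, and 3 of the ERBB receptors, EGFR, ERBB2 and ERBB3. They were chosen by symbol, with earlier results of these data known: EGF and NRG4 were among the largest differences between the genotypes, and the other symbols were listed as their family. They are 10 of the 22916 genes in the authors' table of depth-normalized counts (CPM) scaled by the trimmed mean of M-values (TMM), and all 10 passed the filter on low counts that left 17104 genes for testing. The RNA came from the human colon cancer line HCT116, in 4 groups of 4 libraries each. Truncation knockdown cells carried an edited Rpn10, encoded by PSMD4, that has lost its ubiquitin interacting motif, and received 4 pooled siRNAs against the deubiquitinase OTUD5. Truncation scramble cells carried the same edit and received a scrambled siRNA. WT knockdown and WT scramble cells were unedited and received the OTUD5 siRNAs or the scrambled siRNA. All 16 libraries shared the siRNA dose of 50 nM and the time of 48 hours. Whether the edited cells are 1 clone is not given in the sources used here, so the edit and the history of the edited cells cannot be told apart.

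EGF family ligands are made as membrane-anchored precursors and are cut free at the cell surface by metalloproteases, above all ADAM10 and ADAM17. EGF, AREG and TGFA bind EGFR, while HBEGF, BTC and EREG bind both EGFR and ERBB4, and NRG4 binds ERBB4. ERBB2 has no known ligand of its own and serves as the favoured partner of the other receptors, and ERBB3 has little kinase activity and signals through its partner to PI3K. In colon epithelium this system drives proliferation and repair through RAS-ERK and PI3K-AKT signalling.

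Each library held 28777244 to 29645663 counts. OTUD5 stood at 19.3 to 22.3 CPM in truncation knockdown libraries, 91.7 to 96.7 CPM in truncation scramble, 17.5 to 22.2 CPM in WT knockdown and 83.9 to 91.0 CPM in WT scramble libraries. For the 4 truncation knockdown libraries the sample title says scramble while the treatment label says OTUD5 siRNA, and the treatment label decided their group. PSMD4, whose counts per gene do not show the edit itself, stood at 307 to 336 CPM in truncation knockdown, 198 to 208 CPM in truncation scramble, 228 to 290 CPM in WT knockdown and 225 to 255 CPM in WT scramble libraries. WT knockdown replicate 2 differed most from its group, with a chi-square per degree of freedom of 16.5 to 20.8 against the other 3 libraries, and WT knockdown replicate 3 had 32264 genes with a count where the other 15 libraries had 25626 to 27765. Of 12 colon epithelium markers, 8 had at least 10 counts in every library of each group, while LGALS4, CEACAM5 and CDX1 had at most 5 counts in any library. The summed level of the 12 markers, without TMM scaling, was 4699 to 5559 CPM in truncation knockdown, 3999 to 4316 CPM in truncation scramble, 4186 to 5090 CPM in WT knockdown and 3917 to 4395 CPM in WT scramble libraries. The keratins KRT8, at 58636 to 101220 counts per library, and KRT19, at 27144 to 40234, weighed most in this sum. Summed leukocyte markers stayed at or below 14.0 CPM, endothelial markers at or below 3.05 CPM and fibroblast markers at or below 56.0 CPM in every library.

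The promoters of 4 ligands are shown because 2 pairs of them recur in the results: EGF and NRG4, which were higher in truncation cells, and the neighbours AREG and EREG on chromosome 4. Each sequence is RefSeq's GRCh38.p14 window of 250 bases before and 50 bases from the annotated start, read 5′ to 3′ on the gene's strand, and capitals mark motif matches. The windows are chr4:109912633-109912932 (plus strand) for EGF, chr15:76012375-76012674 (minus strand) for NRG4, chr4:74444886-74445185 (plus strand) for AREG and chr4:74364895-74365194 (plus strand) for EREG.
EGF: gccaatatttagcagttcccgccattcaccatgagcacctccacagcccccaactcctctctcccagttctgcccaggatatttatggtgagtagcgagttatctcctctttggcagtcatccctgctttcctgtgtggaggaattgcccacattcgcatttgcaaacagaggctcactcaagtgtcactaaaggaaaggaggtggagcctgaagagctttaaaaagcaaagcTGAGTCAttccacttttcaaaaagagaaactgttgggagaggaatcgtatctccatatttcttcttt
NRG4: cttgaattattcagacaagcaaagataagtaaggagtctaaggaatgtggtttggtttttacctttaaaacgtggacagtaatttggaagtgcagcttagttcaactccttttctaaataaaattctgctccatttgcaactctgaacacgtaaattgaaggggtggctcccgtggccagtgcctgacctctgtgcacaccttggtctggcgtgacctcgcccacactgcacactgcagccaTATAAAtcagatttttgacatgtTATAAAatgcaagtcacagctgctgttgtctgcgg
AREG: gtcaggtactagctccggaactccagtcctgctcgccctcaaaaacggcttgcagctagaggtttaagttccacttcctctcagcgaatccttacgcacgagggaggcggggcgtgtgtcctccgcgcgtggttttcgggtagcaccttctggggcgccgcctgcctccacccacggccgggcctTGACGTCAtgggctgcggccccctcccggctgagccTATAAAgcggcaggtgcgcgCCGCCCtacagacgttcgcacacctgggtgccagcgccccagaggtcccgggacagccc
EREG: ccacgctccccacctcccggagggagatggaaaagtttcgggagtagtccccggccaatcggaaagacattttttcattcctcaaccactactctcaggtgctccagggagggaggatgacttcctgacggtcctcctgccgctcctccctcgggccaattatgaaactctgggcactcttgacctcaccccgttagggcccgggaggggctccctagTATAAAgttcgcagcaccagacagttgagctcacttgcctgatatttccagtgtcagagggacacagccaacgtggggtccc

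Both strands were searched for the TATA box TATAAA, the cAMP response element TGACGTCA, the AP-1 site TGANTCA and the GC box GGGCGG, and no matches in the 4 windows overlapped. EGF held an AP-1 match that begins 17 bases before the start, a motif found in 7.71% of the 35116 promoters in the table. AREG held a TATA box at -29, a cAMP response element at -65 and a GC box at -9, and EREG held a TATA box at -32. TATA boxes occur in 11.5% of all promoters, cAMP response elements in 1.85% and GC boxes in 45.0%. NRG4 held TATAAA at -8 and at 16, where 1 is the first base of the start, and its window lies inside the gene as GENCODE draws it. The GC content was 46.7% for EGF, 43.7% for NRG4, 66.3% for AREG and 57.7% for EREG, against a median of 58.7% over all promoters. These matches are letters in a window and say nothing of what binds there.

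**Figure D1:**
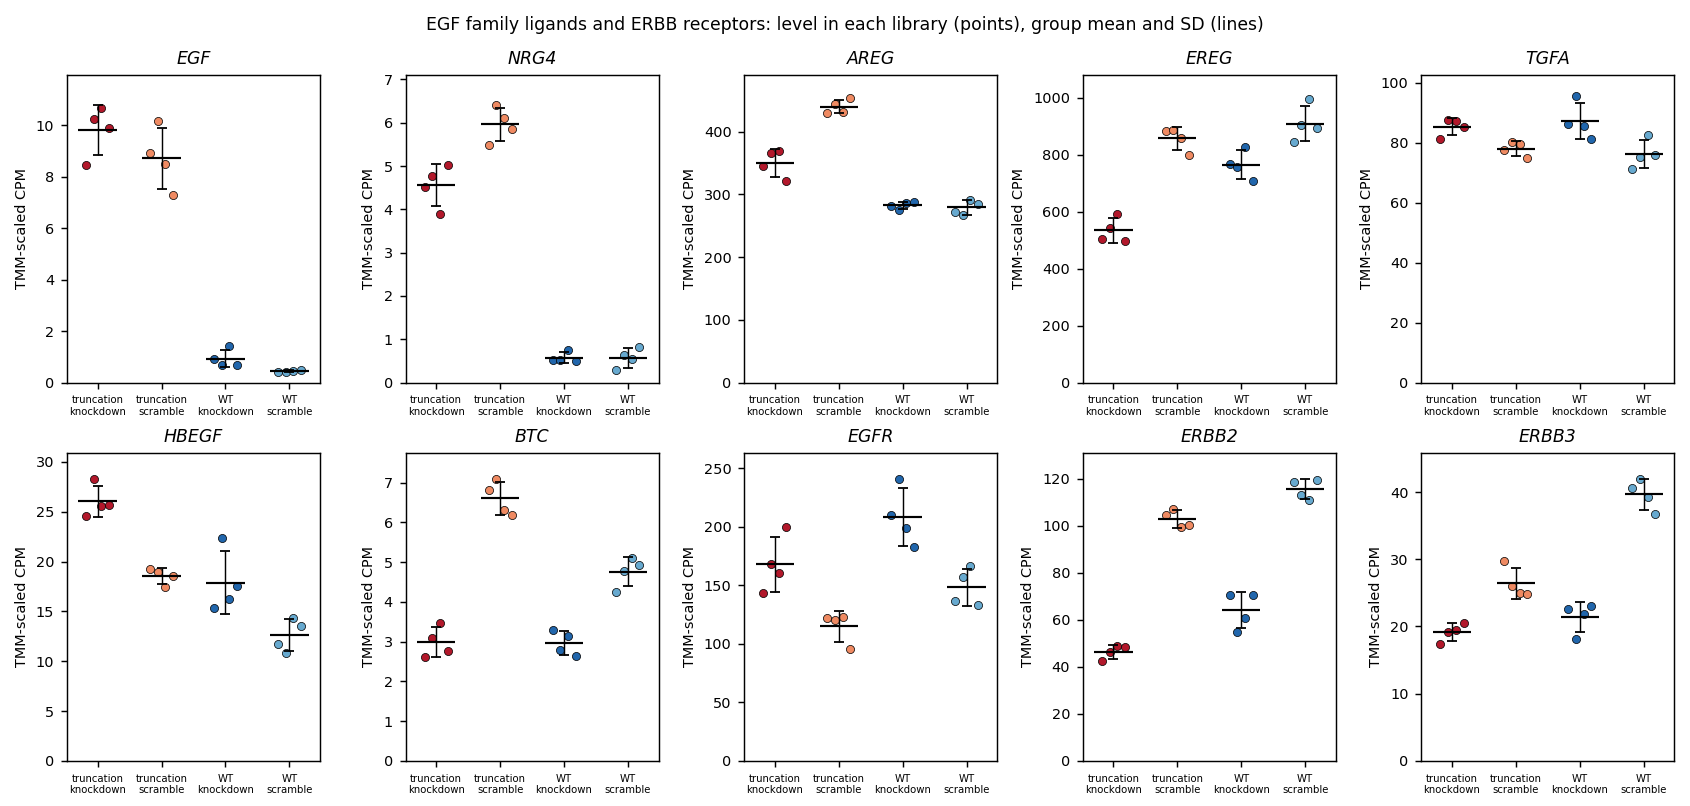
Level of each of the 10 genes as TMM-scaled CPM (vertical axes, starting at 0, 1 scale per gene) in the 4 groups of 4 libraries, with points for libraries and lines for the group mean and SD. The EGF and NRG4 libraries of truncation cells all lie at 3.90 CPM or above, and those of WT cells all lie at 1.41 CPM or below.

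Set side by side, the genotype separated EGF and NRG4 most, which their choice for that difference had settled beforehand. The OTUD5 knockdown separated ERBB2, ERBB3, BTC, EREG, EGFR and HBEGF from scramble in both genotypes. Calls are adjusted p-values below 0.05 in edgeR's quasi-likelihood test, adjusted over all 17104 genes tested. Between truncation and WT cells with scramble siRNA 8 of the 10 genes were called, 5 higher and 3 lower, where 44.0% of all genes were called, 21.6% higher and 22.4% lower. Between truncation and WT cells with knockdown 7 were called, 4 higher and 3 lower, where 45.5% of all genes were called, 21.9% higher and 23.6% lower. The libraries of the 2 groups did not overlap for 8 genes in the scramble comparison (42.6% of all genes) and for 6 genes in the knockdown comparison (35.9% of all genes). These genotype differences were in view when the genes were chosen, and EGF and NRG4 were listed for theirs. Those 2 count as called by choice, so the genotype counts beside the shares of all genes do not test the family. For the same reason the sentences on single genes give their values without p. Over the alternative settings the counts of called genes were 7 or 8 with scramble and 6 or 7 with knockdown.

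Knockdown against scramble called 8 of the 10 genes in WT cells, 4 higher and 4 lower, where 50.3% of all genes were called, 25.2% higher and 25.1% lower. In truncation cells it called 9, 3 higher and 6 lower, where 56.7% of all genes were called, 28.7% higher and 28.1% lower. Over the alternative settings the count stayed at 8 in WT cells and was 7 to 9 in truncation cells. Groups did not overlap for 7 genes in WT cells (41.0% of all genes) and for 9 genes in truncation cells (53.4% of all genes). The 10 genes had a median log2 fold change of -0.33 in truncation cells, beside 0.02 over all genes tested, and of 0.02 in WT cells, beside 0.01. The interaction test, the effect of the siRNA in truncation cells with its effect in WT cells subtracted, was called for 3 of the 10 genes, 1 higher and 2 lower, where 5.69% of all genes were called, 2.05% higher and 3.65% lower. Over the alternative settings it was called for 2 to 5 of the 10 genes. Of the genes called for the interaction 35.9% were higher, and 55.8% with upper-quartile scaling. Each group enters several of these comparisons, so they are not independent of each other.

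**Figure D2:**
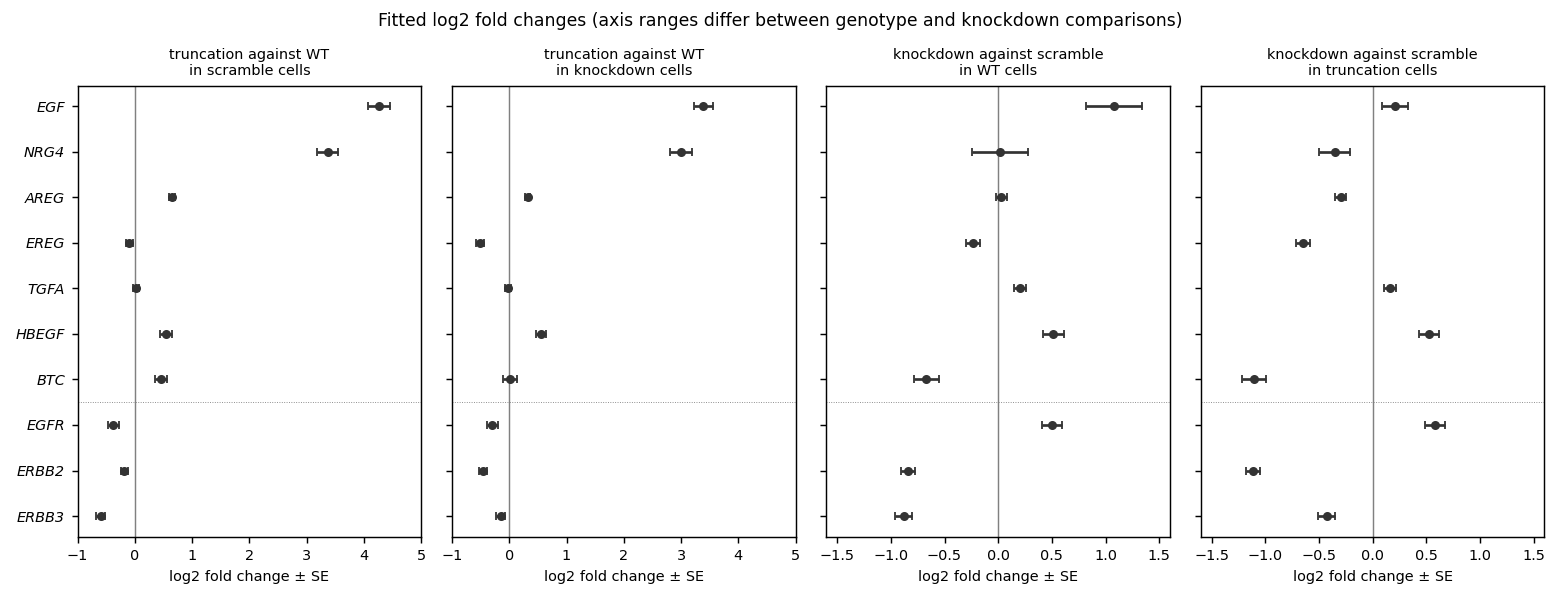
Log2 fold change (horizontal axes, bars are 1 SE) of the 7 ligands above the dotted line and the 3 receptors below it, in 4 comparisons. The left 2 panels run from -1 to 5 and the right 2 from -1.6 to 1.6; EGF lies at 4.26 and 3.39 for the genotype, and ERBB2 at -0.84 and -1.11 for the knockdown.

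EGF (ENSG00000138798, chr4:109912884-110012266, GRCh38, plus strand), the ligand that gives the family its name, was nearly silent in WT cells. Its level was 8.46, 10.2, 10.7 and 9.89 CPM in truncation knockdown libraries and 8.93, 10.2, 8.49 and 7.30 CPM in truncation scramble libraries. In WT cells the 4 libraries gave 0.925, 0.699, 1.41 and 0.697 CPM with knockdown and 0.418, 0.419, 0.451 and 0.500 CPM with scramble. Every truncation library was above every WT library, and the WT values rest on 20 to 43 counts with knockdown and 12 to 14 counts with scramble. The log2 fold change of truncation against WT was 4.26 ± 0.19 (SE, as for all log2 fold changes here) with scramble, a 19.2-fold difference, and 3.39 ± 0.16 with knockdown. Over 21 alternative settings it ran from 4.19 to 4.35 with scramble and from 3.27 to 3.67 with knockdown. In bulk RNA a change in the share of cells that express a gene and a change per cell cannot be told apart.

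Within WT cells EGF rose with the knockdown, by a log2 fold change of 1.08 ± 0.26 (adjusted p = 0.00136), and the groups did not overlap. Without WT knockdown replicate 3, the library with 1.41 CPM and the largest number of genes with a count, the change was 0.79, still called. Within truncation cells the change was 0.20 ± 0.12 with overlapping groups (adjusted p = 0.158, 95% interval -0.05 to 0.46). The 2 knockdown effects differed by -0.87 ± 0.29, which missed the threshold (adjusted p = 0.0756, 95% interval -1.47 to -0.27). That difference was called without WT knockdown replicate 2 (-0.99, adjusted p = 0.0339), without WT knockdown replicate 4 (-0.995, adjusted p = 0.0493), without truncation scramble replicate 4 (-0.97, adjusted p = 0.0468), with DESeq2 and without the filter on low counts. Without WT knockdown replicate 3 it was -0.60. The same libraries gave the genotype differences for which EGF was listed, and the interaction is the difference between those 2. The p-values of these EGF tests are therefore not independent of that choice.

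NRG4 (ENSG00000169752, chr15:75935969-76059795, minus strand), a neuregulin whose receptor is ERBB4, also set the genotypes apart. Truncation knockdown libraries held 4.53, 4.78, 3.90 and 5.03 CPM and truncation scramble libraries 5.50, 6.41, 6.11 and 5.85 CPM. The WT knockdown libraries held 0.514, 0.524, 0.755 and 0.488 CPM and the WT scramble libraries 0.279, 0.628, 0.555 and 0.822 CPM. No truncation library overlapped a WT library, and the WT libraries had 8 to 23 NRG4 counts each. The log2 fold change of truncation against WT was 3.36 ± 0.19 with scramble and 2.99 ± 0.19 with knockdown. Its receptor ERBB4 had at most 10 counts in any library and did not pass the filter.

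The knockdown lowered NRG4 in truncation cells by a log2 fold change of -0.35 ± 0.14 (adjusted p = 0.0358) without overlap between the groups. This call was lost without truncation scramble replicate 2 or 3 (-0.34 and -0.36, adjusted p = 0.0752 and 0.059), without truncation knockdown replicate 1 or 3 (-0.37 and -0.31, adjusted p = 0.0507 and 0.0954), and with upper-quartile scaling. In WT cells the value was 0.02 ± 0.26, with a 95% interval from -0.52 to 0.56 (adjusted p = 0.961) at 8 to 23 counts per library. The interaction for NRG4 was -0.37 ± 0.30 (adjusted p = 0.534, 95% interval -0.99 to 0.25). Because NRG4 was listed for its genotype difference in these libraries, the p-values of its knockdown tests are not independent of that choice. NRG4 shares 1917 exon bases, 38.1% of its merged exons, with FBXO22 on the opposite strand, and the strand setting of the counting is not given in the sources used here, so reads from that stretch cannot be assigned. FBXO22, a subunit of a ubiquitin ligase, averaged 68.8 ± 1.75 CPM in truncation scramble and 65.7 ± 3.55 CPM in WT scramble libraries (SD, n = 4 each), a log2 difference of 0.05 ± 0.05 (adjusted p = 0.43). With the knockdown FBXO22 rose, by a log2 fold change of 0.28 ± 0.05 in truncation cells (adjusted p = 5.66e-05) and 0.32 ± 0.05 in WT cells (adjusted p = 1.07e-05), and its part in the NRG4 counts was not tested.

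Over the 16 libraries the genes with profiles nearest to EGF were SPP1, which encodes the secreted protein osteopontin, LRP1B, a receptor of the LDL receptor family, and CA8, a carbonic anhydrase-related protein. Nearness was the root mean square distance between gene-centred log2 CPM, which was 0.435 for SPP1, 0.469 for LRP1B and 0.631 for CA8, beside a median of 1.92 over 12316 candidate genes. For truncation against WT with scramble SPP1 stood at a log2 fold change of 5.04, LRP1B at 3.87 and CA8 at 2.84. Nearest to NRG4 were SEMA3A, a secreted axon guidance protein, at a distance of 0.329, HSPB8, a small heat shock protein, at 0.366, and KIAA0319 at 0.370, beside a median of 1.6. Nearest to ERBB2 were INTS1, a subunit of the Integrator complex, at 0.0525, NCSTN, a subunit of gamma-secretase, at 0.0609, and the receptor tyrosine kinase TYRO3 at 0.0615, beside a median of 0.560. The distances follow the differences between the 4 groups and describe these libraries only.

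AREG (ENSG00000109321, chr4:74445134-74455009, plus strand) encodes amphiregulin, an EGFR ligand that colon epithelium makes in repair. Its level was 345, 366, 369 and 321 CPM in truncation knockdown libraries and 430, 444, 432 and 454 CPM in truncation scramble libraries. It was 281, 275, 286 and 288 CPM in WT knockdown libraries and 273, 267, 292 and 286 CPM in WT scramble libraries. Truncation libraries lay above WT libraries under either siRNA, and the knockdown separated the groups in truncation cells while the WT groups overlapped. Truncation against WT gave a log2 fold change of 0.64 ± 0.05 with scramble and 0.32 ± 0.05 with knockdown. AREG fell with the knockdown in truncation cells by a log2 fold change of -0.30 ± 0.05 (adjusted p = 1.83e-05). In WT cells its change was 0.03 ± 0.05 (adjusted p = 0.685, 95% interval -0.08 to 0.13), and the difference between these effects was called at -0.32 ± 0.07 (adjusted p = 0.00759).

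EREG (ENSG00000124882, chr4:74365143-74388751, plus strand) encodes epiregulin and lies 56382 bases from AREG. Epiregulin stood at 506, 541, 593 and 499 CPM in truncation knockdown libraries and at 885, 888, 858 and 799 CPM in truncation scramble libraries. The WT values were 769, 756, 829 and 707 CPM with knockdown and 846, 903, 995 and 893 CPM with scramble. The 4 truncation knockdown libraries lay below all others, while the scramble libraries of the 2 genotypes overlapped. EREG fell with the knockdown in both genotypes, by a log2 fold change of -0.65 ± 0.06 in truncation cells (adjusted p = 5.3e-09) and -0.24 ± 0.06 in WT cells (adjusted p = 0.00336). The interaction was called at -0.41 ± 0.09 (adjusted p = 0.00803), a larger fall in truncation cells. The genotype difference for EREG was -0.10 ± 0.06 with scramble and -0.51 ± 0.06 with knockdown.

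TGFA (ENSG00000163235, chr2:70447280-70554193, minus strand), which encodes transforming growth factor alpha, varied least of the 10 genes, with group means that spanned 0.20 on the log2 CPM scale. It averaged 85.4 ± 2.88 CPM in truncation knockdown, 78.1 ± 2.37 CPM in truncation scramble, 87.2 ± 6.08 CPM in WT knockdown and 76.3 ± 4.70 CPM in WT scramble libraries (SD, n = 4 each). The knockdown raised it by a log2 fold change of 0.20 ± 0.06 in WT cells (adjusted p = 0.00437), where the groups overlapped, and by 0.16 ± 0.06 in truncation cells (adjusted p = 0.017). The call in truncation cells was lost without truncation scramble replicate 1, 3 or 4 (adjusted p = 0.079, 0.053 and 0.109), without truncation knockdown replicate 2, 3 or 4 (adjusted p = 0.0838, 0.0803 and 0.0609), and without the filter on low counts (adjusted p = 0.153). Without any 1 of these 6 libraries the value lay between 0.12 and 0.15. Truncation against WT gave 0.02 ± 0.06 with scramble and -0.02 ± 0.06 with knockdown, with overlapping groups. The scramble value changed sign with upper-quartile scaling (-0.03) and without WT scramble replicate 1 (-0.01), and the knockdown value without WT knockdown replicate 2 (0.02).

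HBEGF (ENSG00000113070, chr5:140332843-140346631, minus strand), the heparin-binding ligand and the receptor of diphtheria toxin in its membrane form, was higher in truncation cells and with the knockdown. Truncation knockdown libraries held 24.6, 28.3, 25.6 and 25.7 CPM and truncation scramble libraries 19.3, 18.9, 17.5 and 18.6 CPM. WT knockdown libraries held 15.4, 22.4, 16.2 and 17.6 CPM and WT scramble libraries 11.7, 10.9, 14.3 and 13.5 CPM. Truncation knockdown was above all other groups and WT scramble below them, and the 2 groups between overlapped. HBEGF rose with the knockdown by a log2 fold change of 0.52 ± 0.09 in truncation cells (adjusted p = 4.19e-05) and 0.51 ± 0.10 in WT cells (adjusted p = 1.27e-04). The difference between these effects was 0.01 ± 0.14 (adjusted p = 0.978, 95% interval -0.27 to 0.29). For HBEGF the truncation minus WT value was 0.54 ± 0.10 with scramble and 0.55 ± 0.09 with knockdown.

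BTC (ENSG00000174808, chr4:74744759-74794686, minus strand), which encodes betacellulin, is the next member of the ligand cluster, 289749 bases from AREG. Betacellulin stood at 2.61, 3.10, 3.47 and 2.78 CPM in truncation knockdown libraries and at 6.83, 7.09, 6.32 and 6.2 CPM in truncation scramble libraries. It stood at 3.29, 2.80, 3.15 and 2.65 CPM in WT knockdown libraries and at 4.25, 4.78, 5.10 and 4.93 CPM in WT scramble libraries. The knockdown libraries of the 2 genotypes overlapped and lay below all scramble libraries. BTC fell by a log2 fold change of -1.11 ± 0.11 in truncation cells (adjusted p = 7.57e-09) and -0.67 ± 0.12 in WT cells (adjusted p = 3.61e-05). The interaction of -0.44 ± 0.16 missed the threshold (adjusted p = 0.116, 95% interval -0.78 to -0.10). Truncation against WT gave 0.46 ± 0.11 with scramble and 0.02 ± 0.12 with knockdown, a value that ran from -0.07 to 0.07 as single libraries were left out.

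EGFR (ENSG00000146648, chr7:55019021-55211628, plus strand), the receptor of most of these ligands, was higher with the knockdown in both genotypes. The receptor's transcript stood at 144, 168, 161 and 200 CPM in truncation knockdown libraries and at 122, 120, 123 and 95.4 CPM in truncation scramble libraries. WT knockdown libraries stood at 210, 241, 199 and 183 CPM and WT scramble libraries at 137, 157, 166 and 133 CPM. Knockdown and scramble did not overlap within either genotype. EGFR rose by a log2 fold change of 0.58 ± 0.10 in truncation cells (adjusted p = 1.45e-05) and 0.50 ± 0.10 in WT cells (adjusted p = 1.17e-04), and the interaction was 0.08 ± 0.14 (adjusted p = 0.797, 95% interval -0.20 to 0.36). Truncation against WT gave -0.38 ± 0.10 with scramble and -0.30 ± 0.10 with knockdown. The knockdown groups of the 2 genotypes overlapped, and that difference ran from -0.40 without truncation knockdown replicate 4 to -0.23 without WT knockdown replicate 2. In 2 of 21 alternatives it missed the threshold for a call. EGFR-AS1, an antisense transcript that shares 186 exon bases with EGFR, was at or below 0.350 CPM in every library.

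ERBB2 (ENSG00000141736, chr17:39687914-39730426, plus strand), the receptor without a ligand, was lower with the knockdown, where EGFR was higher. ERBB2 counts gave 42.4, 46.2, 48.7 and 48.4 CPM in truncation knockdown libraries and 105, 107, 99.4 and 100.1 CPM in truncation scramble libraries. For WT cells they gave 70.6, 54.9, 60.8 and 70.4 CPM with knockdown and 119, 113, 111 and 119 CPM with scramble. All 4 groups were separate, in the order WT scramble, truncation scramble, WT knockdown and truncation knockdown. ERBB2 fell by a log2 fold change of -1.11 ± 0.07 in truncation cells (adjusted p = 8.61e-13) and -0.84 ± 0.07 in WT cells (adjusted p = 2.39e-10). Its interaction of -0.27 ± 0.09 missed the threshold (adjusted p = 0.0884, 95% interval -0.47 to -0.08), but was called with DESeq2 (-0.29, adjusted p = 0.0303) and without WT knockdown replicate 2 (-0.35, adjusted p = 0.00658).

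For ERBB2, truncation against WT gave -0.18 ± 0.07 with scramble and -0.46 ± 0.07 with knockdown. Over 21 alternatives the scramble difference ran from -0.23 to -0.16. As single libraries were left out it ran from -0.20 without WT scramble replicate 3 to -0.16 without truncation scramble replicate 3. In 6 of 21 alternatives it missed the threshold for a call. ERBB2 shares 571 exon bases with MIEN1 and 194 with PGAP3, both on the opposite strand. MIEN1, a membrane-anchored protein encoded beside ERBB2, changed with the knockdown by 0.01 ± 0.09 in truncation cells (adjusted p = 0.911) and -0.05 ± 0.09 in WT cells (adjusted p = 0.66). PGAP3, a GPI-anchor remodelling enzyme, fell by a log2 fold change of -0.91 ± 0.09 in truncation cells (adjusted p = 5.77e-09) and -0.66 ± 0.09 in WT cells (adjusted p = 1.82e-06). PGAP3 averaged 6.44 ± 0.391 CPM in truncation knockdown, 12.4 ± 1.08 CPM in truncation scramble, 6.71 ± 0.724 CPM in WT knockdown and 10.7 ± 0.734 CPM in WT scramble libraries (SD, n = 4 each). Its part in the ERBB2 counts was not tested.

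ERBB3 (ENSG00000065361, chr12:56076799-56103505, plus strand), the receptor that couples to PI3K, had its highest level in WT scramble cells. Truncation knockdown libraries gave 17.4, 19.2, 19.4 and 20.5 CPM and truncation scramble libraries 29.8, 26.0, 25.0 and 24.8 CPM for it. WT knockdown libraries gave 22.6, 18.1, 21.9 and 23.0 CPM and WT scramble libraries 40.6, 42.0, 39.3 and 36.7 CPM. The knockdown libraries of both genotypes overlapped, with truncation scramble above them and WT scramble above all. ERBB3 fell by a log2 fold change of -0.43 ± 0.08 in truncation cells (adjusted p = 6.25e-05) and -0.88 ± 0.08 in WT cells (adjusted p = 1.65e-09). The interaction was called at 0.45 ± 0.11 (adjusted p = 0.0175), a smaller fall in truncation cells, and was lost without truncation scramble replicate 3 (0.41, adjusted p = 0.0512). Truncation against WT gave -0.60 ± 0.08 with scramble and -0.15 ± 0.08 with knockdown, and the knockdown value ran from -0.23 without WT knockdown replicate 2 to -0.11 without truncation knockdown replicate 1.

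To compare levels between genes, TMM-scaled CPM was divided by the length of the gene's merged exons in GENCODE, in kilobases. On this scale AREG was the most abundant of the 10 transcripts in every group and EREG came after it. The 7 ligands summed to 335 ± 20.8 CPM per kb in truncation knockdown, 444 ± 5.98 in truncation scramble, 330 ± 8.97 in WT knockdown and 350 ± 17.9 in WT scramble libraries (SD, n = 4 each). The truncation scramble libraries, at 439 to 453 CPM per kb, lay above all others, which spanned 311 to 374. AREG and EREG together held 91.2% of the summed ligand level in truncation knockdown, 94.0% in truncation scramble, 92.5% in WT knockdown and 93.9% in WT scramble libraries. The ratio of EREG to AREG per kb was 0.440 ± 0.0192 in truncation knockdown, 0.562 ± 0.0377 in truncation scramble, 0.781 ± 0.0528 in WT knockdown and 0.938 ± 0.0471 in WT scramble libraries (SD, n = 4 each), with no overlap between any groups. EGF, for all its difference between genotypes, was 0.478% of the summed ligand level in truncation knockdown, 0.320% in truncation scramble, 0.0458% in WT knockdown and 0.0209% in WT scramble libraries.

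**Figure D3:**
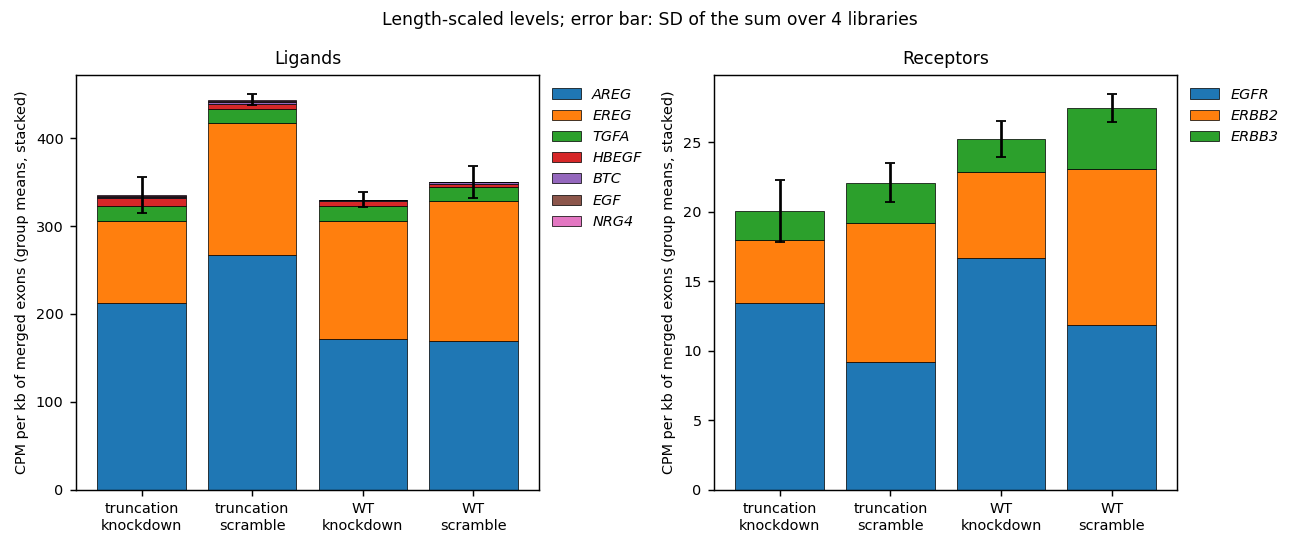
Stacked group means of TMM-scaled CPM per kilobase of merged exons (vertical axes, starting at 0) for the 7 ligands and the 3 receptors in the 4 groups of 4 libraries, with the SD of the sum. AREG and EREG fill 91.2% to 94.0% of the ligand bars, and EGFR fills 66.8% of the receptor bar in truncation knockdown and 43.1% in WT scramble cells.

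The 3 receptors summed to 20.0 ± 2.22 CPM per kb in truncation knockdown, 22.1 ± 1.40 in truncation scramble, 25.2 ± 1.30 in WT knockdown and 27.4 ± 1.01 in WT scramble libraries (SD, n = 4 each). EGFR made up 66.8% of this sum in truncation knockdown and 41.5% in truncation scramble libraries, and 65.8% in WT knockdown and 43.1% in WT scramble libraries. ERBB2 made up 22.6% in truncation knockdown and 45.2% in truncation scramble libraries, and 24.7% in WT knockdown and 40.9% in WT scramble libraries. The share of EGFR was thus at 60.9% or more in every knockdown library and at 46.8% or less in every scramble library. These shares depend on the length used: ERBB2 in WT scramble cells was 11.2 CPM per kb of merged exons, and 23.4 CPM per kb of its longest transcript, which puts it above EGFR at 15.1.

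Other members of the family were NRG1, NRG2 and EPGN, while NRG3 and ERBB4 did not pass the filter. NRG1 and NRG2, both neuregulins, were lower in truncation cells, where EGF and NRG4 were higher. NRG1 averaged 1.07 ± 0.190 CPM in truncation knockdown, 2.74 ± 0.121 CPM in truncation scramble, 2.19 ± 0.398 CPM in WT knockdown and 4.07 ± 0.312 CPM in WT scramble libraries (SD, n = 4 each). Truncation cells differed from WT cells in NRG1 by a log2 fold change of -0.59 ± 0.14 with scramble (adjusted p = 0.00165) and -1.03 ± 0.17 with knockdown (adjusted p = 2.24e-05). The knockdown lowered it by a log2 fold change of -1.32 ± 0.17 in truncation cells (adjusted p = 2.48e-07) and by -0.88 ± 0.15 in WT cells (adjusted p = 1.83e-05). NRG2 averaged 0.607 ± 0.179 CPM in truncation knockdown, 0.585 ± 0.0679 CPM in truncation scramble, 1.52 ± 0.199 CPM in WT knockdown and 2.21 ± 0.124 CPM in WT scramble libraries (SD, n = 4 each), a difference between truncation and WT of -1.92 ± 0.21 with scramble (adjusted p = 4.08e-08). EPGN, the ligand epigen, was at or below 0.454 CPM in every library and was called in none of the comparisons.

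Among genes that cut ligands free or control that cutting, the metalloprotease ADAM15 was the most changed by the knockdown. Of 12 tested, 7 rose and 4 fell in truncation cells, where 28.7% of all genes rose and 28.1% fell, with a median log2 fold change of 0.27 beside 0.02 over all genes. In WT cells 8 rose and 4 fell, where 25.2% of all genes rose and 25.1% fell, with a median of 0.26 beside 0.01. ADAM15 fell to 52.3 ± 4.04 CPM in truncation knockdown, against 212 ± 6.69 CPM in truncation scramble, and to 74.8 ± 11.9 CPM in WT knockdown, against 214 ± 8.02 CPM in WT scramble libraries (SD, n = 4 each). Its log2 fold change was -1.98 ± 0.08 in truncation cells (adjusted p = 5.58e-16) and -1.51 ± 0.08 in WT cells (adjusted p = 1.93e-13), and the interaction of -0.47 ± 0.11 was called (adjusted p = 0.0103). ADAM8, another metalloprotease, rose by 1.55 ± 0.17 in truncation cells (adjusted p = 2.52e-08) and 0.66 ± 0.17 in WT cells (adjusted p = 0.00215). ADAM17 rose with the knockdown by 0.42 ± 0.06 in truncation cells (adjusted p = 3.37e-06) and 0.42 ± 0.06 in WT cells (adjusted p = 4.13e-06). ADAM10 rose by 0.26 ± 0.06 in truncation cells (adjusted p = 0.000938) and 0.29 ± 0.06 in WT cells (adjusted p = 0.000376). TIMP1, a metalloprotease inhibitor, fell by a log2 fold change of -0.40 ± 0.07 in truncation cells (adjusted p = 1.17e-05) and -0.53 ± 0.07 in WT cells (adjusted p = 4.02e-07). For truncation against WT 4 were higher and 2 lower with knockdown (21.9% and 23.6% of all genes), and 2 were higher and 1 lower with scramble (21.6% and 22.4% of all genes). With knockdown 1 was lower without WT knockdown replicate 1. With scramble 1 was higher without WT scramble replicate 2, none was lower without WT scramble replicate 1 or 2, any truncation scramble library or truncation knockdown replicate 1 or 3, and 2 were lower without WT scramble replicate 3. NRDC, a protease that enhances ectodomain shedding, was higher in truncation than in WT cells with scramble, by 0.43 ± 0.05 (adjusted p = 5.99e-08).

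Among 24 tested genes of receptor turnover and inhibition, 10 rose and 8 fell with the knockdown in truncation cells, where 28.7% of all genes rose and 28.1% fell. In WT cells 7 rose and 7 fell, where 25.2% and 25.1% of all genes did, close to the list's own shares. Against WT 9 were higher and 4 lower in truncation cells with knockdown (21.9% and 23.6% of all genes), and 8 were higher and 6 lower with scramble (21.6% and 22.4% of all genes). CBLC, a ubiquitin ligase for activated EGFR, was called lower in all 4 comparisons, with log2 fold changes from -0.94 ± 0.13 for truncation with knockdown (adjusted p = 2.71e-06) to -0.79 ± 0.12 for knockdown in WT cells (adjusted p = 7.39e-06). ERRFI1, a feedback inhibitor of ERBB kinases, averaged 380 ± 8.18 CPM in truncation scramble and 652 ± 30.5 CPM in WT scramble libraries (SD, n = 4 each), a difference of -0.80 ± 0.06 (adjusted p = 1.01e-10). PTPRJ, a receptor phosphatase that acts on EGFR, was higher by 0.81 ± 0.07 in truncation than in WT cells with scramble (adjusted p = 2.55e-09). GRB7, an adaptor encoded near ERBB2, stood at a log2 fold change of -0.85 ± 0.10 in that comparison (adjusted p = 2.66e-07). With the knockdown the phosphatase gene PTPN12 fell by a log2 fold change of -0.78 ± 0.06 in truncation cells (adjusted p = 3.31e-11) and -0.83 ± 0.06 in WT cells (adjusted p = 2.51e-11).

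**Figure D4:**
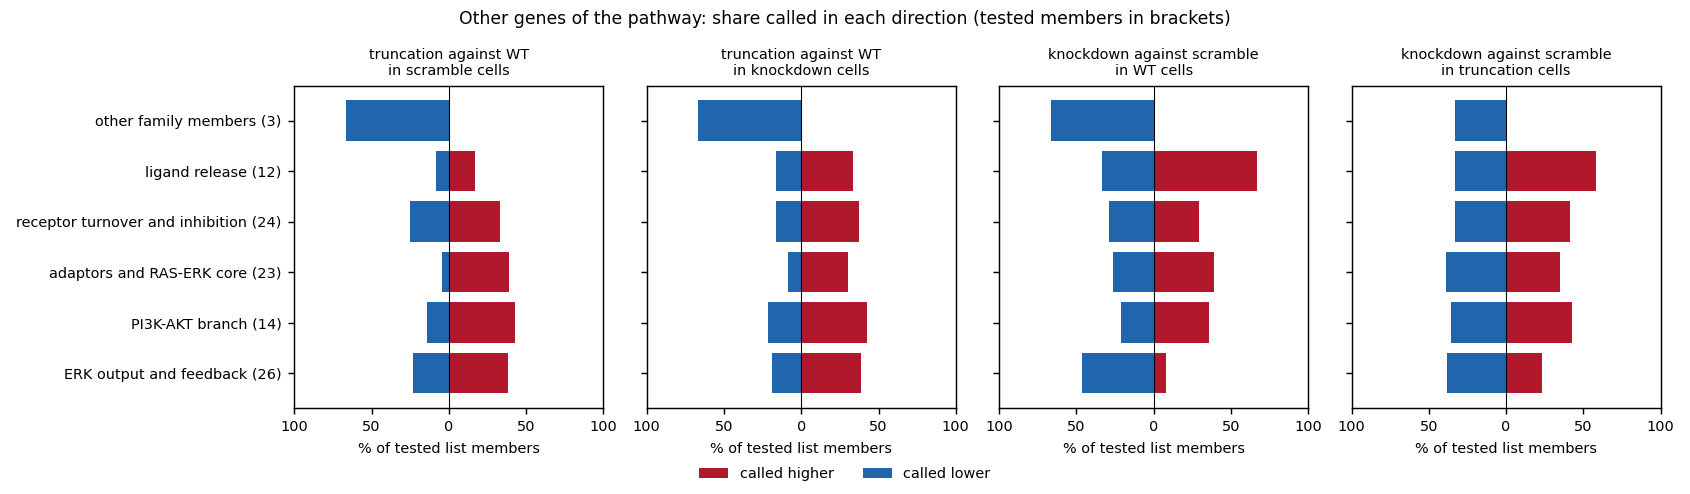
Share of the tested genes of 6 pathway lists (rows, number tested in brackets) called higher (right of 0) or lower (left of 0) in 4 comparisons (horizontal axes in %). In the ERK output list 2 of 26 genes rose and 12 fell for knockdown in WT cells (25.2% and 25.1% of all genes). In truncation against WT cells with scramble 10 were higher and 6 lower (21.6% and 22.4% of all genes).

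Adaptors and the RAS-ERK core held 23 genes, all tested. For truncation against WT 7 were higher and 2 lower with knockdown (21.9% and 23.6% of all genes), with a median log2 fold change of 0.04. With scramble 9 were higher and 1 lower (21.6% and 22.4% of all genes), or 2 lower without WT scramble replicate 4, with a median of 0.09 beside -0.02 over all genes. GAB2, a docking protein for SHP2 and PI3K, was higher in truncation cells, by 1.07 ± 0.09 with knockdown (adjusted p = 8.65e-10) and 1.10 ± 0.09 with scramble (adjusted p = 3.86e-10). SHC1, the adaptor that links phosphorylated receptors to GRB2 and RAS, averaged 200.4 ± 8.07 CPM in truncation knockdown, 405 ± 8.45 CPM in truncation scramble, 134 ± 6.74 CPM in WT knockdown and 232 ± 4.10 CPM in WT scramble libraries (SD, n = 4 each). It was higher in truncation than in WT cells with scramble by 0.79 ± 0.05 (adjusted p = 1.1e-12) and fell with the knockdown by a log2 fold change of -0.98 ± 0.05 in truncation cells (adjusted p = 1.66e-14) and -0.78 ± 0.05 in WT cells (adjusted p = 2.41e-12). With the knockdown 8 of the list rose and 9 fell in truncation cells (28.7% and 28.1% of all genes), and 9 rose and 6 fell in WT cells (25.2% and 25.1% of all genes). BRAF, a kinase that RAS activates, rose by 0.68 ± 0.08 in truncation cells (adjusted p = 1.54e-07) and 0.53 ± 0.08 in WT cells (adjusted p = 9.91e-06).

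In the PI3K-AKT branch 14 genes were tested, and AKT1 fell with the knockdown. With the knockdown 6 rose and 5 fell in truncation cells (28.7% and 28.1% of all genes), and 5 rose and 3 fell in WT cells (25.2% and 25.1% of all genes). AKT1 fell by a log2 fold change of -0.99 ± 0.06 in truncation cells (adjusted p = 6.45e-13) and -0.82 ± 0.06 in WT cells (adjusted p = 4.43e-11). Against WT 6 were higher and 3 lower in truncation cells with knockdown (21.9% and 23.6% of all genes). With scramble 6 were higher and 2 lower (21.6% and 22.4% of all genes), or 4 lower with upper-quartile scaling. In that comparison IRS1, a docking protein for PI3K, stood at a log2 fold change of -0.98 ± 0.07 (adjusted p = 1.81e-11) and PIK3R1, a regulatory subunit of PI3K, at 0.91 ± 0.08 (adjusted p = 1.23e-09).

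Among 26 genes known as outputs and feedback regulators of ERK signalling, DUSP6 was higher in truncation cells and lower with the knockdown. Against WT 10 were higher and 5 lower in truncation cells with knockdown (21.9% and 23.6% of all genes), and 10 were higher and 6 lower with scramble (21.6% and 22.4% of all genes). The 5 lower genes became 2 without WT knockdown replicate 4 and 3 without truncation knockdown replicate 1. With the knockdown 6 rose and 10 fell in truncation cells, where 28.7% of all genes rose and 28.1% fell, and 3 rose without truncation knockdown replicate 2. In WT cells 2 rose and 12 fell, where 25.2% of all genes rose and 25.1% fell, and 1 rose without WT knockdown replicate 2. The list's median with the knockdown was -0.09 in truncation cells, beside 0.02 over all genes, and -0.13 in WT cells, beside 0.01. DUSP6, the ERK phosphatase that is a standard readout of the pathway, had a level of 122 ± 9.21 CPM in truncation knockdown, 318 ± 18.2 CPM in truncation scramble, 68.6 ± 3.90 CPM in WT knockdown and 145 ± 7.99 CPM in WT scramble libraries (SD, n = 4 each). Its log2 fold change was 1.12 ± 0.06 for truncation with scramble (adjusted p = 7.87e-14), -1.35 ± 0.06 for knockdown in truncation cells (adjusted p = 2.58e-15) and -1.07 ± 0.06 for knockdown in WT cells (adjusted p = 5.88e-13).

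The ERK-dependent transcription factor gene ETV5 averaged 60.02 ± 4.6 CPM in truncation knockdown, 132 ± 2.73 CPM in truncation scramble, 44.7 ± 4.2 CPM in WT knockdown and 88.2 ± 4.75 CPM in WT scramble libraries (SD, n = 4 each). ETV5 fell with the knockdown by a log2 fold change of -1.10 ± 0.06 in truncation cells (adjusted p = 4.47e-13) and -0.97 ± 0.07 in WT cells (adjusted p = 1.48e-11). LIF, a secreted cytokine, fell by a log2 fold change of -0.86 ± 0.06 in truncation cells (adjusted p = 4.15e-11) and -0.99 ± 0.06 in WT cells (adjusted p = 8.76e-12). The immediate early gene EGR1 went the other way in WT cells, where it rose by 0.67 ± 0.07 (adjusted p = 5.63e-08), and EGR3 was lower in truncation than in WT cells with scramble, at -0.84 ± 0.14 (adjusted p = 3.86e-05). The knockdown effect differed between genotypes for DUSP5, another ERK phosphatase, by 0.74 ± 0.11 (adjusted p = 2.17e-04) and for EGR1 by -0.45 ± 0.10 (adjusted p = 0.0115). DUSP6 was near the threshold of that test, at -0.28 ± 0.08 (adjusted p = 0.0498). The sum of the colon epithelium markers, in which KRT8 and KRT19 weighed most, was higher in truncation knockdown libraries than in either scramble group. The part of cell state in these differences was not tested.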

How the data were processed

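The authors deposited whole-number counts per gene for 16 libraries, the same counts after a filter, and CPM values scaled by TMM, a signal normalized for depth. The submitters' processing notes name STAR 2.7.3a, DESeq2, edgeR, limma and the build hg38; how reads were counted, and with which strand setting, is not stated there. The deposited signal equalled CPM recomputed from the filtered counts to a relative difference of 5e-15. Of 60668 genes, filterByExpr kept 17104, with at least 99.8% of the counts of each library. After TMM scaling, edgeR 4.0.16 (R 4.3.3) fitted a quasi-likelihood model with a term for each group, 12 residual degrees of freedom and no replicate block. Tests were two-sided, with Benjamini-Hochberg adjustment over all genes tested, and the common biological coefficient of variation was 7.25%. Titles number the libraries as biological replicates, but no label says whether they came from separate cultures, so part of the spread behind each p-value may be technical.

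The members, the pathway lists and the tests were chosen with earlier results of these data known. Named genes were all 10 members, OTUD5, PSMD4 and, per list and comparison, some of up to 4 called genes with the largest change. The 3 nearest profiles (mean log2 CPM of 1 or more) of the 3 members with the widest range were also named. Genes that overlap a member were added, and so were ADAM10 and ADAM17. Not all of the list genes were printed, so an unnamed gene may have changed more than a named one. A gene that this rule names is not reported here. Coordinates and lengths came from GENCODE on GRCh38. Alternatives were RLE and upper-quartile scaling, DESeq2 1.42.0, no filter, the replicate block, and leaving out each of the 16 libraries.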

Additional observations from a re-analysis of the deposited data

Results flagged for a closer look

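A single library stood far from the other 3 of its group for 2 of the 40 groups of member levels examined, where chance sets apart about 1 in 20 groups. NRG4 had 0.755 CPM in WT knockdown replicate 3, where the other 3 libraries of the group had 0.488 to 0.524 CPM. EGFR had 95.4 CPM in truncation scramble replicate 4, where the other 3 had 120 to 123 CPM; without this library truncation against WT with scramble gave a log2 fold change of -0.29.

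The knockdown effect differed between the genotypes, by edgeR's interaction test, for 3 of the 10 genes, where 5.69% of all genes were called. Over the alternative settings 2 to 5 of the 10 genes were called. Subtracting the effect in WT cells from that in truncation cells left -0.32 for AREG, -0.41 for EREG and 0.45 for ERBB3 on the log2 scale. AREG fell in truncation cells, and its change in WT cells was 0.03. EREG fell in both genotypes and further in truncation cells, and ERBB3 fell in both and further in WT cells. The ERBB3 call was lost without truncation scramble replicate 3 (adjusted p = 0.0512).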

How the results depend on the processing

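Of 1050 member values under alternatives, 995 kept their direction and their side of the threshold, 21 lost their call, 8 gained one and 26 changed sign, none of them called in the main analysis. The cause of these changes was not tested. The sign changes were TGFA for truncation with scramble (-0.0270 with upper-quartile scaling, and -0.00956 to 0.0601 without 1 library), TGFA for truncation with knockdown (-0.0590 to 0.0214 without 1 library), BTC for truncation with knockdown (-0.0683 to 0.0711) and NRG4 for knockdown in WT cells (-0.207 to 0.242). For the interaction they were TGFA (0.00997 with upper-quartile scaling, and -0.0828 to 0.00197 without 1 library), HBEGF (-0.00278 with RLE, -0.0109 with DESeq2, -0.0121 without the filter, and -0.0797 to 0.130 without 1 library) and EGFR (-0.0330 to 0.154). The genes called for the interaction numbered 974, 1586 with DESeq2, 899 with upper-quartile scaling, and 653 to 1661 without 1 library, the highest without WT knockdown replicate 2. Of 1260 counts of called list genes under alternatives, 1171 were within 1.5 times and 89 were not.

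Same-numbered libraries of different groups had correlations of -0.241 to 0.369 in their deviations from group means, so they did not all exceed 0.1 and the numbers were not taken to pair the libraries. As a hint from the data alone, replicate 3 correlated best with replicate 3 in all 6 pairs of groups (0.0833 to 0.335), which the other numbers did not. With the replicate block the interaction count was 1150, and no member's call changed. Level per length kept the place of 7 of the 10 genes in WT scramble cells with the longest transcript as length. EGF had 12 to 14 counts per WT scramble library and 20 to 43 per WT knockdown library. At these counts, and at 8 to 23 NRG4 counts per WT library, depth limits the precision of the changes of both genes.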
